A study of Mus musculus with 15 samples.

Results

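The creatine cycling genes of thermogenic fat were examined as 7 mouse genes, Slc6a8, Gatm, Gamt, Ckb, Ckmt1, Ckmt2 and Alpl, chosen by name and matched by gene symbol to the count table. All 7 were found among its 37991 genes. The data are RNA sequencing of 15 adipose libraries from C57BL/6 mice, in 4 groups. Brown adipose tissue of pups at postnatal day 0.5 gave 4 libraries labelled IL-33-/- and 4 wild-type libraries, and inguinal white adipose tissue at day 24 gave 3 IL-33-/- libraries, numbered 2 to 4, and 4 wild-type libraries. IL-33 is a cytokine released by damaged or stressed cells, and the title of the series asks how it and its receptor ST2 bear on uncoupled respiration. Neither the deleted part of Il33 nor the cells that carry the deletion are stated in the labels, which name no added agent. Tissue and age differ together between the depots and cannot be told apart.

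Cells take creatine up through the transporter SLC6A8 or make it from arginine and glycine by GATM and then GAMT. Creatine kinases move phosphate between ATP and creatine: CKB in the cytosol of many cell types, CKM in the cytosol of muscle, and CKMT1 and CKMT2 between the mitochondrial membranes, CKMT2 being the form of striated muscle. In mouse thermogenic fat, a futile cycle in which phosphocreatine is made and then hydrolysed again spends ATP as heat without UCP1. CKB and the phosphatase TNAP, the product of Alpl, have been placed in that cycle at the mitochondria, and loss of Gatm or Slc6a8 in mouse fat cells impairs energy expenditure.

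The 250 bases before the RefSeq transcription start (build GRCm38.p6, another build than the mm9 of the count table) are shown for the 4 members that the results below turn on: the biosynthetic pair Gatm and Gamt, which were both lower in inguinal knockout tissue, the muscle-type kinase Ckmt2 and the brain-type kinase Ckb. They are Gatm at chr2:122611278-122611527, Gamt at chr10:80261013-80261262, Ckmt2 at chr13:91876886-91877135 and Ckb at chr12:111672339-111672588, all on the minus strand. RefSeq promoter entries were matched for 6 of the 7 members, the one without an entry being Slc6a8. Each sequence runs 5′ to 3′ toward the start, and capitals mark every match, on either strand, to the box CCAAT, to the GC box GGGCGG, to the E-box CAGCTG, to the half-site AAGGTCA read by estrogen-related receptors or to the TATA motif TATAAA.
Gatm: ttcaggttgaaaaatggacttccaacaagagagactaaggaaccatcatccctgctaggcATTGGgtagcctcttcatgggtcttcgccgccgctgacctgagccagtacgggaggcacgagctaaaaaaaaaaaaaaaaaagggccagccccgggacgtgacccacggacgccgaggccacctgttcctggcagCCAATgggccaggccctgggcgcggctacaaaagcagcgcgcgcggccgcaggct
Gamt: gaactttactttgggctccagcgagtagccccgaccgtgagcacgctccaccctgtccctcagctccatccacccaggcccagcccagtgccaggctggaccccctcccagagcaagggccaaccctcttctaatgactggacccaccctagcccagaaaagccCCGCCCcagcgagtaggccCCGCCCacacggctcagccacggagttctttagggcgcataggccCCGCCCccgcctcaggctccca
Ckmt2: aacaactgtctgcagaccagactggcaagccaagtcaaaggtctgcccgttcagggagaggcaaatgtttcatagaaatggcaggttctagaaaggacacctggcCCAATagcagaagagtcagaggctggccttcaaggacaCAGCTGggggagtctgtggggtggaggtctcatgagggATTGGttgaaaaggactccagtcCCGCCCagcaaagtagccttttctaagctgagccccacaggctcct
Ckb: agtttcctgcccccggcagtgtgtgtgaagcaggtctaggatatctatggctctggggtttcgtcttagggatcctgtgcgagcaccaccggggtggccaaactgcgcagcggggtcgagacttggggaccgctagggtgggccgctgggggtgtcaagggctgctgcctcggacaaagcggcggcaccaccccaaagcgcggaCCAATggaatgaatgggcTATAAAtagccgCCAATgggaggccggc
The motifs were chosen after the values were seen, and a match is a description of the letters only. Positions count back from the start, the base before it being -1. Gatm held CCAAT on the minus strand at -190 to -186 and on the plus strand at -55 to -51. Gamt had no CCAAT and held the GC box GGGCGG on the minus strand from -86, -67 and -22. Ckmt2 held CCAAT from -145 and -69, a GC box from -46 and the E-box CAGCTG, a motif read by muscle transcription factors, from -107. Ckb held CCAAT from -46 and -16 around a TATA motif from -28. Among 32851 mouse promoters of the same length, CCAAT was present in 33.8%, GGGCGG in 32.7%, CAGCTG in 13%, the TATA motif in 12.4% and the half-site, which none of these 4 windows holds, in 4.08%.

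Total counts were 33782634 to 40802095 in labelled knockout and 31661512 to 41926108 in wild-type brown libraries, and 30835337 to 38765633 in knockout and 26059635 to 53923009 in wild-type inguinal libraries. Levels below are CPM, counts scaled to a common library size, after TMM scaling, a correction for library composition. Il33 stood at 0.345, 0.470 and 0.0798 CPM in inguinal knockout libraries 2 to 4, against 3.50, 4.65, 3.77 and 3.60 in the wild type (log2 -3.73, edgeR adjusted p = 1.25e-05). In brown libraries it stood at 0.408, 1.72, 1.42 and 0.591 CPM in the labelled knockout, against 1.81, 3.17, 2.01 and 1.73 in the wild type (log2 -1.08, edgeR adjusted p = 0.229), so that group is called labelled knockout throughout. On the first principal component of the brown libraries (42.1% of the variance), labelled knockout library 1 lay at -37.0 beside the wild types (-26.6 to -19.3), while labelled knockout libraries 2 to 4 lay at 24.8 to 51.4. That library also had the lowest Il33 of all brown libraries. The brown log2 changes of the tested members are therefore given with and without library 1. It was picked out from these same data, so calls made without it are no independent support. The labelled tissue was checked against 10 adipocyte markers, none of which was at 0 in any library. Their sum was 12519 to 15120 CPM in labelled knockout and 14438 to 16912 in wild-type brown libraries, and 31445 to 35652 in knockout and 35112 to 35629 in wild-type inguinal libraries. Skeletal muscle RNA was also present (19 markers). Its summed level was 3500 to 6163 CPM in labelled knockout and 3802 to 6359 in wild-type brown libraries, and 111 to 120 in knockout and 241 to 542 in wild-type inguinal libraries.

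**Figure D1:**
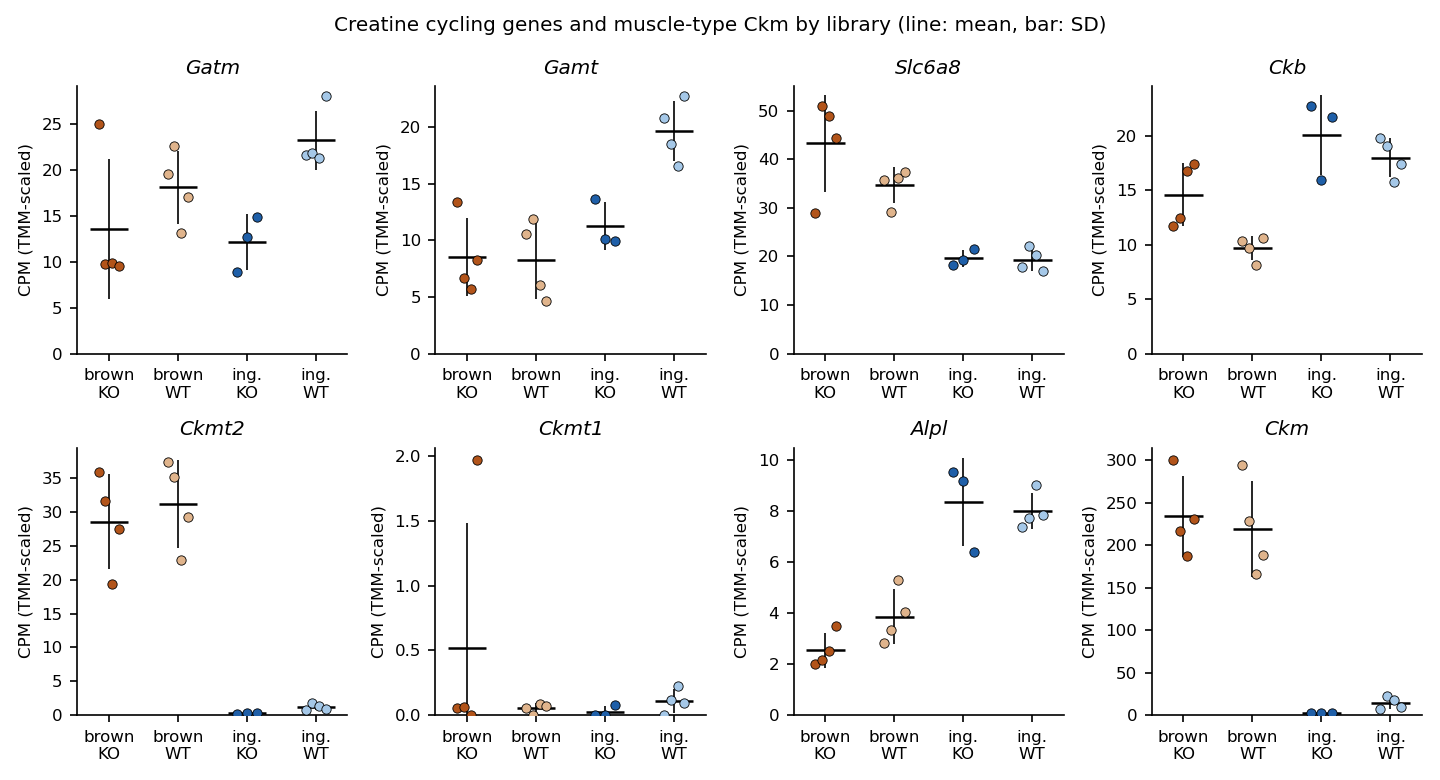
CPM after TMM scaling (vertical axes, linear, from 0) of the 7 creatine cycling genes and of Ckm in every library, by group (ing., inguinal). Each point is 1 library, horizontal lines are group means and vertical bars 1 SD, drawn no lower than 0. Gatm, Gamt and Ckmt2 separate inguinal knockout from wild type, and Ckb separates labelled knockout from wild type in brown tissue.

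In day 24 inguinal fat the RNA of the enzymes that make creatine was lower in the knockout, while the change of the creatine transporter RNA did not pass. Of the 6 members that could be tested, 3 fell (Gatm, Gamt and Ckmt2), none rose and 3 did not pass. Among all 15710 genes tested, 28.6% passed in either direction, 13.3% being lower and 15.3% higher in the knockout. The median log2 change was -0.37 over the 6 tested members and -0.02 over all tested genes. Passing means an adjusted p (Benjamini-Hochberg, over all genes) below 0.05 in edgeR's quasi-likelihood test. Whether the libraries within a group are from different animals is not stated in the labels, and the p-values measure a spread between libraries that may be technical.

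Gatm, the mitochondrial amidinotransferase that makes guanidinoacetate and commits arginine and glycine to creatine, stood at 8.92, 12.8 and 14.9 CPM in knockout libraries 2 to 4, against 21.7, 21.9, 21.3 and 28.1 CPM in wild-type libraries 1 to 4. Every knockout library lay below every wild-type library. The means were 12.2 ± 3.04 CPM in the knockout (SD, n = 3) and 23.3 ± 3.23 CPM in the wild type (SD, n = 4), a log2 change of -0.91 (SE 0.15, 95% interval -1.24 to -0.58, edgeR adjusted p = 0.000827).

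Gamt, the cytosolic methyltransferase that turns guanidinoacetate into creatine, stood at 13.7, 10.1 and 9.90 CPM in the knockout libraries, against 20.8, 18.5, 16.6 and 22.7 CPM in the wild type. Here too the genotypes did not overlap. The means were 11.2 ± 2.12 CPM in the knockout (SD, n = 3) and 19.7 ± 2.68 CPM in the wild type (SD, n = 4), a log2 change of -0.79 (SE 0.14, 95% interval -1.10 to -0.48, edgeR adjusted p = 0.00127). Within the knockout the order of the libraries was reversed between the genes, library 2 having the lowest Gatm and the highest Gamt. The falls of Gatm and Gamt passed with each library left out in turn, at edgeR adjusted p-values of at most 0.0063 and 0.0126. With all 4 groups in 1 fit, which uses 1 estimate of spread for both depots, the changes were -0.92 and -0.80 and neither passed (edgeR adjusted p = 0.0682 and 0.111).

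Slc6a8, the plasma membrane creatine transporter, stood at 18.2, 19.2 and 21.6 CPM in knockout libraries, against 17.9, 22.1, 20.2 and 17.1 CPM in the wild type. The groups overlapped. The log2 difference was 0.05 with a 95% interval of -0.20 to 0.29 (edgeR adjusted p = 0.802), which does not include the size of the change of Gatm or Gamt. The sign of this small difference turned with total count scaling and with some libraries left out.

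Ckmt2, the sarcomeric mitochondrial kinase, was near the limit of detection in inguinal fat. It had 4, 9 and 10 counts in knockout libraries 2 to 4, against 27, 59, 35 and 49 counts in the wild type. In CPM these were 0.138, 0.302 and 0.266 in the knockout and 0.7099, 1.72, 1.32 and 0.892 in the wild type, with no overlap. The log2 change was -2.24 (SE 0.44, 95% interval -3.17 to -1.30, edgeR adjusted p = 0.00191). Exact Poisson intervals, which cover counting error only, reached from 0.0353 to 0.530 CPM of the total count over the knockout libraries and from 0.460 to 2.17 over the wild-type libraries.

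Skeletal muscle markers moved with Ckmt2. Of 18 muscle genes tested, 16 fell and none rose in inguinal knockout tissue, with a median log2 change of -2.44. Among all genes tested there, 13.3% fell and 15.3% rose. Ckm, the muscle cytosolic kinase, stood at 2.72, 2.35 and 2.08 CPM in the knockout, against 7.18, 22.9, 17.2 and 9.90 CPM in the wild type (log2 -2.56, SE 0.43, edgeR adjusted p = 0.00350). As a share of the muscle sum, Ckmt2 was 0.115%, 0.260% and 0.240% in knockout libraries, against 0.294%, 0.317%, 0.299% and 0.267% in the wild type. The largest gene of the sum held 69.5 of 120, 71.8 of 116 and 64.2 of 111 CPM in knockout libraries 2 to 4. In wild-type libraries 1 to 4 the largest gene held 90.1 of 241, 125 of 542, 109 of 442 and 104 of 335 CPM. The share and the covariate rest on this uneven sum. The largest gene was taken per library without its name and may differ between libraries, and a sum without it was not tested. With the muscle sum as a covariate, the log2 change of Ckmt2 was -0.30 (edgeR adjusted p = 0.968), that of Gatm -1.11 (0.491) and that of Gamt -1.12 (0.383). In that fit 23 of all genes passed. The muscle sums of the genotypes do not overlap, so muscle content and genotype cannot be told apart in these inguinal libraries. In bulk tissue, fewer cells of a type and less RNA per cell cannot be told apart either.

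Some markers of other cell types also passed in inguinal tissue, where 13.3% of all tested genes fell and 15.3% rose. Of 10 tested endothelial genes 6 fell, with a summed level of 1094 to 1208 CPM in the knockout and 1328 to 1564 CPM in the wild type. Of 7 tested nerve and Schwann cell genes 3 fell and 2 rose (sums of 384 to 504 CPM in the knockout and 602 to 699 CPM in the wild type), and of 10 B cell genes 2 fell (6.41 to 19.0 CPM in the knockout and 16.1 to 28.9 CPM in the wild type). Of 6 tested neutrophil genes 3 rose, 1 of 4 epithelial genes fell, bone and cartilage genes gave 1 rise and 1 fall of 3, and none of 8 erythroid genes passed. Of 10 adipocyte genes 1 rose and 1 fell. In either direction 28.6% of all tested genes passed, and the B cell, epithelial, adipocyte and erythroid lists lay below that share. The part of these cell types in the falls of Gatm and Gamt was not tested. In brown tissue no gene of any of the 9 marker lists passed, where 0.260% of all tested genes did.

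**Figure D2:**
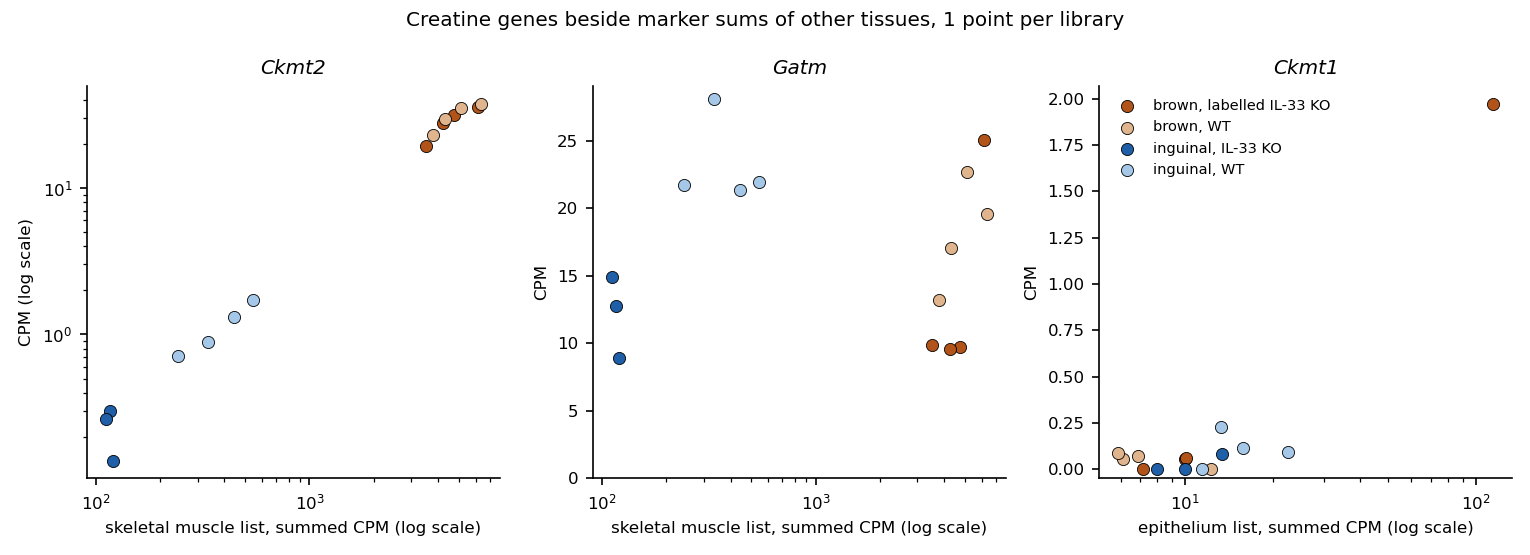
Level in CPM of Ckmt2 (log scale), Gatm (linear) and Ckmt1 (linear) on the vertical axes against the summed CPM of skeletal muscle or epithelium markers (horizontal axes, log scale), 1 point per library. Ckmt2 rose with the muscle sum between depots and among brown libraries, and both were lower in inguinal knockout than in inguinal wild-type tissue. Among inguinal knockout libraries, library 2 had the highest muscle sum and the lowest Ckmt2. Gatm did not follow the muscle sum between depots, and Ckmt1 stood out in the 1 brown library with an epithelial sum of 115 CPM.

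Ckb, the cytosolic brain-type kinase, stood at 22.7, 15.9 and 21.7 CPM in inguinal knockout libraries, against 19.8, 19.1, 15.7 and 17.4 CPM in the wild type. The groups overlapped, and the log2 difference was 0.18 (95% interval -0.10 to 0.46, edgeR adjusted p = 0.328). Per kilobase of exon, Ckb made up a median 88.4% of the summed level of the 4 creatine kinase genes in the knockout (84.4% to 89.0%), against 52.0% in the wild type (42.1% to 69.95%). Ckm made up a median 10.5% in the knockout (8.48% to 12.4%), against 40.9% in the wild type (25.2% to 50.2%). The shares did not overlap between the genotypes while the level of Ckb itself did.

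Alpl, which encodes the tissue-nonspecific alkaline phosphatase TNAP, stood at 9.54, 9.17 and 6.39 CPM in inguinal knockout libraries, against 7.36, 7.74, 9.01 and 7.86 CPM in the wild type. The groups overlapped (log2 0.09, 95% interval -0.26 to 0.43, edgeR adjusted p = 0.733), and the sign turned with total count scaling. Ckmt1, the ubiquitous mitochondrial kinase, had 0, 0 and 3 counts in the knockout libraries, against 0, 4, 6 and 5 in the wild type, and was not tested. Its 3-count floor was 0.0774 to 0.0973 CPM in the knockout and 0.0556 to 0.115 CPM in the wild type, so only 3 wild-type libraries were above it.

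Ordered by level per kilobase, inguinal knockout tissue had Gamt at 7.78, Ckb at 6.94, Gatm at 4.07, Slc6a8 at 3.77, Alpl at 2.07, Ckmt2 at 0.158 and Ckmt1 at 0.0107 CPM per kilobase. Wild-type inguinal tissue had Gamt at 13.6, Gatm at 7.75, Ckb at 6.21, Slc6a8 at 3.704, Alpl at 1.98, Ckmt2 at 0.780 and Ckmt1 at 0.0434. Neighbours in the wild-type order did not overlap over libraries. In the knockout, Gamt overlapped Ckb and Gatm overlapped Slc6a8. By this measure Gatm stood between Gamt and Ckb in the wild type and beside the transporter in the knockout. The order rests on exon-union lengths (Gamt 1444, Ckb 2895 and Gatm 3001 bases), and other lengths were not tried.

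The counts of the genes around creatine stand beside the 15.3% of all tested inguinal genes that rose and the 13.3% that fell. Of 17 tested genes of arginine, glycine, serine and methyl group supply, 5 rose and 2 fell (median log2 0.07). Shmt1, which interconverts serine and glycine, averaged 40.5 ± 6.87 CPM in the knockout (SD, n = 3) and 22.5 ± 2.98 CPM in the wild type (SD, n = 4), a log2 rise of 0.87 (edgeR adjusted p = 0.000413). Ahcy, which clears the S-adenosylhomocysteine that GAMT releases, rose by 0.56 on the log2 scale, averaging 12.4 ± 1.09 CPM in the knockout and 8.55 ± 0.641 CPM in the wild type (edgeR adjusted p = 0.00375). The falls were of Slc7a2, a cationic amino acid transporter that carries arginine (log2 -0.61, edgeR adjusted p = 0.0115), and Phgdh, the first enzyme of serine synthesis (log2 -0.44, edgeR adjusted p = 0.0116).

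Of 11 genes of adenylate and nucleotide transfer, 2 rose and 1 fell, a share near that of all genes. Ak3, a mitochondrial matrix nucleotide phosphotransferase, averaged 577 ± 76.2 CPM in the knockout and 415 ± 30.5 CPM in the wild type (log2 0.49, edgeR adjusted p = 0.00336). Slc25a5, an ADP/ATP carrier, averaged 525 ± 43.5 CPM in the knockout and 392 ± 18.1 CPM in the wild type (log2 0.44, edgeR adjusted p = 0.00239). The fall was that of Ckm. Of 6 tested genes of phosphate and pyrophosphate handling, 1 rose and 3 fell. The rise was of Phospho1, a phosphatase of phosphocholine and phosphoethanolamine (1.75 ± 1.06 CPM in the knockout and 0.536 ± 0.184 CPM in the wild type, log2 1.74, edgeR adjusted p = 0.00701), and the falls were of Slc20a1 (log2 -0.38), Ppa1 (-0.35) and Enpp1 (-0.74). The other alkaline phosphatase genes Alpi, Alppl2 and Akp3 were too low to test.

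Of 7 tested genes of calcium cycling, which is known as another ATP-spending cycle, 2 rose and 3 fell. Atp2a2, the widely expressed calcium pump SERCA2, averaged 357 ± 37.2 CPM in the knockout and 253 ± 4.13 CPM in the wild type (log2 0.52, edgeR adjusted p = 0.00112). The falls were of the muscle genes Atp2a1 (log2 -2.73) and Ryr1 (-2.76), which the muscle list holds too, and of Pln (-1.51). Of 19 tested thermogenic genes, 11 rose and 1 fell. Ucp1 stood at 2092, 2014 and 1635 CPM in knockout libraries, against 609, 937, 1037 and 711 CPM in the wild type (log2 1.24, SE 0.17, edgeR adjusted p = 0.000382). None of the 6 tested creatine cycling genes rose beside it.

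**Figure D3:**
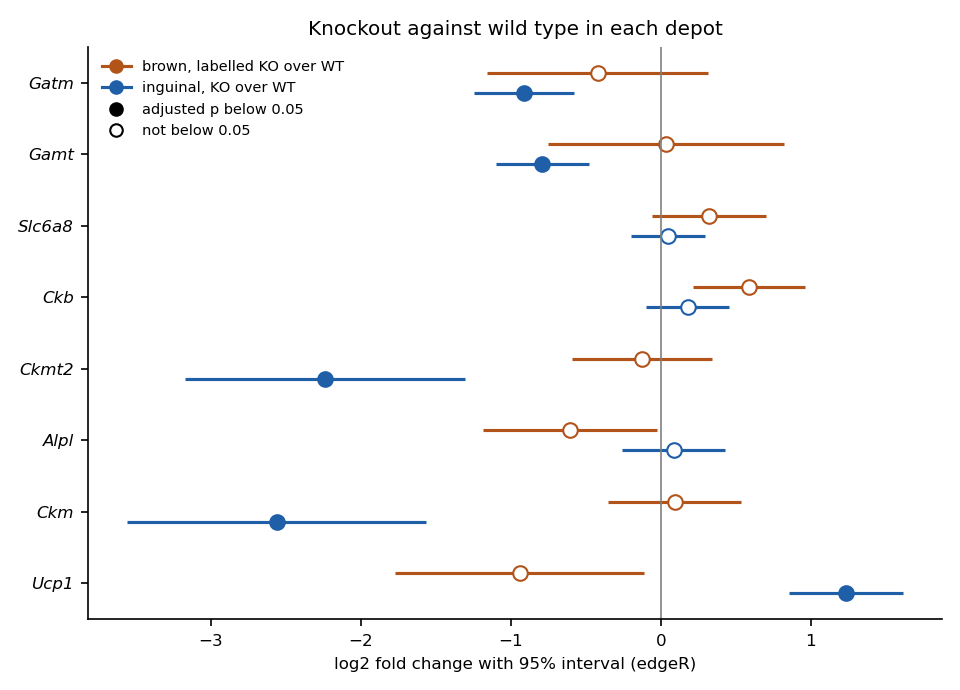
Log2 fold change (horizontal axis, knockout over wild type) with its 95% interval for the 6 tested creatine cycling genes, Ckm and Ucp1, in brown and inguinal tissue. Filled points had an edgeR adjusted p below 0.05. Gatm, Gamt, Ckmt2 and Ckm lay below 0 in inguinal tissue, and the brown intervals of Ckb, Alpl and Ucp1 exclude 0 without passing after adjustment.

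In newborn brown fat none of the 6 tested members passed, where 0.260% of 15796 genes did (41 genes, against 2930 with an unadjusted p below 0.05), and 2 members had an unadjusted p below 0.05. The median log2 change was -0.04 over the tested members and 0.01 over all tested genes. By other tools, 1 member, Ckb, passed in DESeq2 (adjusted p = 0.0261), which called 1032 genes in all (6.81%). In limma-voom with quality weights, which called 3094 genes (19.6%), 3 members passed with all libraries kept. They were Ckb (log2 0.65, limma-voom adjusted p = 0.0158), Gatm (-0.76, 0.0248) and Slc6a8 (0.39, 0.0394).

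Ckb stood at 11.7, 12.4, 16.8 and 17.4 CPM in labelled knockout libraries 1 to 4, against 10.4, 9.66, 8.08 and 10.6 CPM in the wild type. Every labelled knockout library lay above every wild-type library. The means were 14.6 ± 2.91 CPM in the labelled knockout and 9.69 ± 1.14 CPM in the wild type (SD, n = 4 each). The log2 difference was 0.59 (SE 0.17, 95% interval 0.21 to 0.96) and did not pass (edgeR adjusted p = 0.135, 0.00587 unadjusted). Without library 1 it was 0.68 and passed (edgeR adjusted p = 0.0155). Over all alternatives the adjusted p ran from 0.0155 to 0.337.

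Gatm stood at 25.02, 9.76, 9.88 and 9.59 CPM in labelled knockout libraries 1 to 4, against 19.6, 22.7, 13.2 and 17.0 CPM in the wild type. Libraries 2 to 4 lay below every wild-type library and library 1 above them all. The log2 difference was -0.42 (SE 0.33, 95% interval -1.16 to 0.32, edgeR adjusted p = 0.528) with library 1, and -0.90 (edgeR adjusted p = 0.00817) without it. Leaving out any other library gave -0.55 to -0.29 and no call.

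Slc6a8 showed the opposite order, at 28.9, 51.0, 48.8 and 44.4 CPM in labelled knockout libraries, against 35.8, 29.2, 36.2 and 37.3 CPM in the wild type. Library 1 was again on the other side of the wild types from libraries 2 to 4. The log2 difference was 0.32 (SE 0.17, 95% interval -0.06 to 0.70, edgeR adjusted p = 0.346) with library 1, and 0.47 (edgeR adjusted p = 0.0148) without it. Without library 1, 2905 genes (18.1% of those tested) passed in brown tissue and 3 of them were members, Ckb, Gatm and Slc6a8. The same members passed in limma-voom with library 1 kept. Leaving out any other brown library called 2 to 19 genes and no member. Library 1 was set apart by these same data, so the calls without it are descriptions only.

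**Figure D4:**
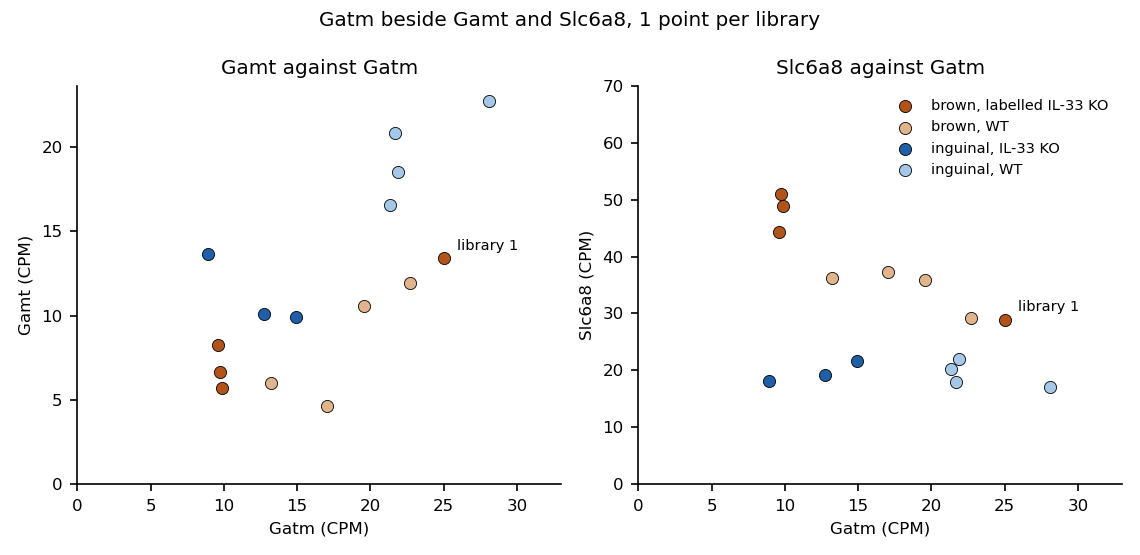
Gamt and Slc6a8 (vertical axes, CPM) against Gatm (horizontal axes, CPM), 1 point per library, all axes linear from 0. Brown labelled knockout library 1, marked, lies at 25.02 CPM of Gatm and 28.9 CPM of Slc6a8, while libraries 2 to 4 of that group lie at 9.59 to 9.88 and 44.4 to 51.0 CPM, and inguinal libraries of the 2 genotypes separate in Gatm and Gamt and overlap in Slc6a8.

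Gamt stood at 13.4, 6.66, 5.72 and 8.28 CPM in brown labelled knockout libraries, against 10.6, 11.9, 6.01 and 4.66 CPM in the wild type. The groups overlapped, and the log2 difference was 0.04 (95% interval -0.75 to 0.82, edgeR adjusted p = 0.967), with a sign that turned when single libraries were left out. Without library 1 it was -0.27 (edgeR adjusted p = 0.598). The interval with all libraries includes the inguinal change of -0.79 as well as 0. Ckmt2 stood at 35.9, 31.6, 19.4 and 27.6 CPM in the labelled knockout, against 37.4, 35.2, 22.9 and 29.3 CPM in the wild type (log2 -0.13, 95% interval -0.59 to 0.34, edgeR adjusted p = 0.783), again with a sign that turned without 1 library. Without labelled knockout library 1 it was -0.25 (edgeR adjusted p = 0.424).

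Ckmt2 ranked the brown libraries exactly as the muscle marker sum did. Over the 8 brown libraries the 2 were correlated at Pearson r = 0.94 and Spearman rho = 1 (exact permutation p = 0.00067 and 4.96e-05, adjusted over 45 pairs to 0.0184 and 0.00223), and r was 0.99 without the 2 libraries farthest from the median muscle sum. The value for rho is the smallest that 8 libraries can give. Both measures come from the same libraries and share their scaling. Ckmt2 was 0.554% to 0.668% of the muscle sum in labelled knockout and 0.589% to 0.685% in wild-type brown libraries. The r of Gatm and Gamt with the muscle sum there was 0.74 and 0.80, and neither passed (adjusted exact permutation p = 0.250 and 0.135). Without the 2 libraries farthest from the median muscle sum, r fell to 0.52 for Gatm and 0.63 for Gamt. Gatm and Slc6a8 ran in opposite directions (r = -0.94, rho = -0.90). Their adjusted exact permutation p was 0.0184 for r, which passed, and 0.0685 for rho, which did not. All these brown correlations pooled both genotypes, so a difference between the genotypes enters r and its p. In Gatm and Slc6a8, labelled knockout libraries 2 to 4 lay apart from the other brown libraries. Over the deviations of all 15 libraries from their group means, r of Gatm and Slc6a8 was -0.73. No r of Ckmt2 with the muscle sum is given for inguinal tissue, whose genotypes form separate clusters in both.

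Alpl stood at 1.99, 2.15, 2.52 and 3.50 CPM in brown labelled knockout libraries, against 2.81, 3.32, 5.29 and 4.03 CPM in the wild type. Libraries 1 to 3 of the labelled knockout lay below the wild types and library 4 within them. The log2 difference was -0.61 (SE 0.26), with a 95% interval of -1.19 to -0.02 and an edgeR adjusted p of 0.251 (0.0428 unadjusted), which does not pass. Without library 1 it was -0.50 (edgeR adjusted p = 0.204). Ucp1 stood at 1540, 3175, 1890 and 3221 CPM in the labelled knockout, against 2471, 3203, 6404 and 6801 CPM in the wild type (log2 -0.94, edgeR adjusted p = 0.220). Alpl and Ucp1 were correlated over the 8 brown libraries, both genotypes pooled (r = 0.85, rho = 0.90, exact permutation p = 0.00771 and 0.00456). Neither value passed after adjustment over 45 pairs (0.0855 and 0.0685). Without the 2 libraries farthest from the median of Ucp1, r was 0.80.

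Ckmt1 had 2, 2, 0 and 80 counts in brown labelled knockout libraries 1 to 4, against 2, 0, 3 and 3 in the wild type. All but 1 of these libraries were at or below the 3-count floor, and the fourth labelled knockout library stood at 1.97 CPM. That library also stood apart in epithelial markers: the sum of 13 of them was 115 CPM there, against 5.87 to 12.3 CPM in the other brown libraries. Its keratin Krt5 stood at 45.2 CPM, against at most 0.0920 CPM in any other brown library, and Krt14 at 19.3 CPM, against at most 0.0575. Not every marker was raised: Krt8, Elf5, Cldn3 and Cldn7 stood at 0.394, 0.764, 0.0986 and 0.0493 CPM there. The highest other brown library had 0.800, 0.951, 0.109 and 0.257 CPM of these genes. The remaining listed markers were higher there than in any other brown library. The part of epithelial RNA in the Ckmt1 level was not tested. Ckmt1 was too low to be tested in either depot, and with no filter on low counts its brown log2 difference of 3.23 did not pass (edgeR adjusted p = 0.446).

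None of the genes in the 5 pathway lists passed in brown tissue either, where 0.260% of all tested genes did.

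The test of the difference between depots, the inguinal knockout effect minus the brown one, called 1 of the 6 tested members, where 9.00% of 16858 genes were called. For Ckmt2 the log2 difference was -2.12 (SE 0.49), at an edgeR adjusted p of 0.0155. Without inguinal knockout library 2, which had 4 counts of Ckmt2, it was -1.88 and did not pass (edgeR adjusted p = 0.0585). Ckm differed likewise by -2.67 (edgeR adjusted p = 0.00469), and 12 of 18 tested muscle markers had a more negative inguinal effect.

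For Gatm the difference between the effects was -0.51 (SE 0.42, 95% interval -1.42 to 0.40, edgeR adjusted p = 0.477) and for Gamt -0.85 (SE 0.43, 95% interval -1.77 to 0.07, edgeR adjusted p = 0.232). The lower levels of Gatm and Gamt in inguinal knockout tissue were therefore not shown to be particular to that depot. Without brown labelled knockout library 1 the difference was -0.02 for Gatm and -0.53 for Gamt (edgeR adjusted p = 0.972 and 0.358). Ckb (-0.43), Slc6a8 (-0.29) and Alpl (0.67) did not pass either, with edgeR adjusted p-values of 0.242, 0.423 and 0.195.

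Between the wild-type tissues, 5 of the 6 tested members differed, where 61.4% of 15979 genes did. In newborn brown relative to day 24 inguinal fat, Ckmt2 and Slc6a8 were higher, Ckb, Gamt and Alpl were lower, and Gatm did not pass. Ckmt2 averaged 31.2 ± 6.49 CPM in brown and 1.16 ± 0.451 CPM in inguinal tissue, a log2 difference of 4.80 (SE 0.27, edgeR adjusted p = 2.91e-07). Ckm was higher by 3.96 and 16 of 18 tested muscle markers were higher in brown tissue, with a median log2 difference of 3.68.

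Slc6a8 averaged 34.6 ± 3.69 CPM in brown and 19.3 ± 2.27 CPM in inguinal wild-type tissue (SD, n = 4 in both), a log2 difference of 0.86 (SE 0.11, edgeR adjusted p = 2.36e-05). Gamt averaged 8.29 ± 3.50 CPM in brown and 19.7 ± 2.68 CPM in inguinal tissue (log2 -1.23, SE 0.29, edgeR adjusted p = 0.00483). Gatm averaged 18.1 ± 4.02 CPM in brown and 23.3 ± 3.23 CPM in inguinal tissue, and the log2 difference was -0.35 (SE 0.16, edgeR adjusted p = 0.0793). Ckb, at 9.69 ± 1.14 CPM in brown and 18.0 ± 1.83 CPM in inguinal tissue, was lower by 0.88 on the log2 scale (edgeR adjusted p = 3.88e-05). Alpl, at 3.86 ± 1.08 CPM in brown and 7.99 ± 0.711 CPM in inguinal tissue, was lower by 1.04 (edgeR adjusted p = 0.00042). Of these members the transporter and the muscle-type kinase were thus the ones with more RNA in brown tissue. Ucp1 was higher there by 2.53 (edgeR adjusted p = 0.000625).

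Brown labelled knockout tissue had Ckmt2 at 19.3, Slc6a8 at 8.31, Gamt at 5.89, Ckb at 5.04, Gatm at 4.52, Alpl at 0.629 and Ckmt1 at 0.209 CPM per kilobase. Wild-type brown tissue had Ckmt2 at 21.0, Slc6a8 at 6.65, Gatm at 6.04, Gamt at 5.74, Ckb at 3.35, Alpl at 0.958 and Ckmt1 at 0.0211. Ckmt2 stood clear of Slc6a8 in both, and from Slc6a8 down to the fifth gene neighbours overlapped over libraries. Of the 4 creatine kinase genes, Ckm held a median 76.6% of the summed level per kilobase in labelled knockout and 75.1% in wild-type brown libraries, with Ckmt2 at 18.1% in labelled knockout and 21.5% in wild-type libraries and Ckb at 5.02% in labelled knockout and 3.44% in wild-type libraries.

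Of 18 tested supply genes, 7 were higher and 6 lower in brown than in inguinal wild-type tissue, where 61.4% of all genes passed in either direction. Psat1, Phgdh and Psph, the 3 enzymes of serine synthesis, were lower by 2.84, 2.42 and 2.06 on the log2 scale, while Shmt1 was higher by 1.997 (edgeR adjusted p of at most 1.29e-06 for each). Among phosphate genes, 3 were higher and 2 lower of 6, Ppa1, a cytosolic inorganic pyrophosphatase, being lower by 2.02 (edgeR adjusted p = 2.39e-05). Of 11 energy transfer genes, 4 were higher and 2 lower, and of 8 calcium cycling genes 6 were higher and 1 lower.

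The genes most like each member were ranked by the lower of 2 Pearson correlations of log2 CPM, taken over the 8 brown and over the 7 inguinal libraries, among 12548 genes. Both genotypes were pooled, and in inguinal tissue the genotypes do not overlap in Gatm or Gamt. The top of so many genes has a high r by selection, so these values are descriptions without a test. For Gatm they were Ska2 (0.96 in brown, 0.98 in inguinal tissue), Fam122b (0.95 and 0.98) and Fam111a (0.95 and 0.98). For Gamt they were Cenpt (0.92 and 0.97), Stk39 (0.93 and 0.91) and Col15a1 (0.89 and 0.97), and for Ckb Sh3gl1 (0.91 and 0.95), Alkbh2 (0.93 and 0.90) and Cdk2ap2 (0.90 and 0.93). Slc6a8 was nearest to Zfp318 (0.85 and 0.81), Selenop and Cd163, and Alpl to Ctcflos (0.84 and 0.87), Adam1a and Capn2. Ckmt1 and Ckmt2 averaged under 1 CPM in inguinal tissue and were not ranked.

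The members lie on chromosomes X (Slc6a8), 2 (Gatm and Ckmt1), 10 (Gamt), 12 (Ckb), 13 (Ckmt2) and 4 (Alpl). Stretches of 50 bases shared with other genes were sought in the transcripts, since reads from them can be split. Gatm, Gamt, Slc6a8, Alpl and Ckmt1 had none. Of the stretches of Ckb, 9.98% were shared, nearly all with the pseudogene Gm12892, which had at most 4 counts in any library. Ckmt2 shared 2.51% with 1700119I11Rik, an antisense gene with 3 counts in all libraries, and the sources do not state which strand setting the counting used.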

How the data were processed

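Polyadenylated RNA of 15 libraries was sequenced with the Illumina TruSeq Stranded mRNA kit, per the labels' protocols. Tools named in the submitters' processing notes are TopHat2 (2.1.0), edgeR, Subread and featureCounts, with the mm9 build; annotation release and strand setting: not given in the sources used here. The authors deposited raw counts per Ensembl gene, with no normalization, and 32919 of 37991 genes were matched to a symbol. No libraries of a group agreed within sampling noise (lowest chi-square per degree of freedom 14.7).

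Each comparison was fitted in R 4.3.3 with edgeR 4.0.16 on its own libraries over all genes kept by filterByExpr (minimum count 10), with TMM scaling, the robust quasi-likelihood F-test and Benjamini-Hochberg adjustment, passing below 0.05. The difference between depots used all 4 groups. CPM per kilobase used exon unions of GENCODE M21 (GRCm38), another annotation than that of the counts. The fits were also run on simulated counts, drawn with the spread estimated from these same libraries. Those runs are not used as support for any call. Named genes were the 7 members, Ckm, Il33 and Ucp1, up to 4 genes of each list by smallest p and the 3 most alike in pattern, of which the text gives some. The members and the 14 lists (170 entries, 169 matched) were chosen with earlier results of these data known. Sequences are from RefSeq. Alternatives were DESeq2 1.42.0 size factors and Wald test, total count scaling, no filter, limma-voom (limma 3.58.1) with quality weights, non-robust dispersions, all 4 groups in 1 fit, the replicate number as a block, the muscle sum as a covariate and each library left out. Intervals on counts cover counting error only.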

Additional observations from a re-analysis of the deposited data

Results flagged for a closer look

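Gatm in brown labelled knockout library 1 stood at 25.02 CPM, apart from the 9.59 to 9.88 CPM of the other 3 libraries of its group, the gap to the nearest being 0.981 of the range of the group. Gatm in inguinal wild-type library 4 stood at 28.1 CPM, with a gap of 0.916 of the range above the other 3 wild-type libraries (21.3 to 21.9 CPM). Ckmt1 in brown labelled knockout library 4 stood at 1.97 CPM, with a gap of 0.969 of the range above the other 3 libraries. These 3 came from 21 combinations of a member and a group of 4 libraries examined, and chance alone picks out about 1 group in 20. The knockout effect on Ckmt2 differed between the depots by -2.12 on the log2 scale, inguinal minus brown (edgeR adjusted p = 0.0155).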

How the results depend on the processing

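In inguinal tissue the changes of Gatm, Gamt and Ckmt2 kept their direction under every alternative run. All 3 passed in every one except 2: with all 4 groups in 1 fit only Ckmt2 passed (1 member, 2249 genes), and with the muscle sum as covariate no member passed (0 members, 23 genes). In brown tissue total count scaling called 24 genes, no filter 67, and DESeq2 1032 (1 member, Ckb). There limma-voom called 3094 (3 members), and all 4 groups in 1 fit 1151 (1 member, Ckb). With 1 library left out, brown counts ran from 2 to 2905 genes and 0 to 3 members, inguinal counts from 3274 to 4719 genes and 3 members each time, and wild-type depot counts from 9106 to 9950 genes and 5 to 6 members. For the difference between depots they ran from 632 to 3571 genes and 0 to 1 member, while DESeq2 called 2351 genes, limma-voom 3652 with 0 members (Ckmt2 -1.85, adjusted p = 0.0730). The replicate block called 7 genes in brown tissue, 3990 in inguinal tissue, 859 for the difference and 9574 between wild-type depots, with 0, 3, 1 and 5 members. Deviations of same-numbered libraries had r of -0.072 to 0.14, and those of differently numbered libraries -0.12 to 0.099. The highest brown r was between the libraries numbered 3 (0.14). These values do not settle whether the numbers are pairs, and the main tests did not take them as pairs. Signs turned for brown Gamt without labelled knockout library 1 (-0.27) or wild-type library 3 (-0.087) or 4 (-0.16), for brown Ckmt2 without labelled knockout library 3 (0.025), for inguinal Slc6a8 with total count scaling (-0.051) and without knockout library 4 (-0.011) or wild-type library 4 (-0.017), and for inguinal Alpl with total count scaling (-0.022) and without knockout library 2 (-0.030). With 1 library left out, brown Gamt ran from -0.27 to 0.27, brown Ckmt2 from -0.25 to 0.025, inguinal Slc6a8 from -0.017 to 0.11 and inguinal Alpl from -0.030 to 0.26. None of these was called. The cause was not tested. Gatm between wild-type depots passed with limma-voom (-0.40, adjusted p = 0.0282) and without brown wild-type library 2 (-0.48, edgeR adjusted p = 0.0137).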
